A study of Mus musculus with 4 samples.

Results

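The genes described here are the 142 named pseudogenes that carried reads in a comparison of 2 pluripotent states of mouse cells. They were chosen from the 52327 gene names of the authors' deposited table. A gene was taken when its symbol ended in -ps, with or without a number, and when its transcripts together held at least 40 estimated counts over the 4 libraries. Of 1666 symbols with that ending, 1227 had no counts and 297 lay above 0 and under the threshold. The rule therefore used the summed count of all libraries and not the difference between the states. A pseudogene with few counts could still reach the threshold through a single group, which ties its direction to its entry. Just inside the threshold were Plk-ps1 with 40.05 summed counts, Tmem181c-ps with 45.03 and Psenen-ps with 45.53. Just outside it were Rpl36-ps2 with 38.56, Rpsa-ps9 with 38.01 and Adgrd2-ps with 38.0. The parent of a pseudogene was taken to be the gene whose symbol stands before -ps. For 101 of the pseudogenes that parent was in the table, which gave 89 parents, and for 41 it was not.

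The tested cells were rfISCs, which the labels place between rosette-stage and formative stem cells and which were grown in PIF conditions (2 libraries). The control cells were ESCs, embryonic stem cells in 2i conditions, in which inhibitors of MEK and GSK3 keep cells naive (2 libraries). Both groups came from the line 46C, which carries a GFP reporter at Sox1, so all 4 libraries share that allele. The labels do not say whether the libraries came from separate cultures, so the p-values speak only of how these libraries varied, and that spread may be technical.

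A pseudogene is a genomic copy of a gene that no longer serves as a working copy of it. A processed pseudogene arose when a messenger RNA was reverse transcribed by retrotransposon enzymes and inserted elsewhere in the genome, so it usually lacks introns and promoter. An unprocessed pseudogene arose by duplication of the gene itself, and often sits beside its relatives in a cluster. Genes with much messenger RNA in the germ line, ribosomal protein genes above all, have left many processed copies. A short read from a recent copy can match the parent as well as the copy, and a counting tool must then divide it between them.

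The annotation went only in part with a reading of these genes as processed pseudogenes. All 142 were matched by transcript ID to the GENCODE M21 annotation, in which 87 were processed, 36 were unprocessed and 19 were neither. Among those 19 were 15 genes annotated as protein-coding, Ftl1-ps1 and Rpl10-ps3 among them. Most of the processed pseudogenes, 84 of 87, had single-exon transcripts, and 2 of the 36 unprocessed ones did. They are called named pseudogenes below for that reason.

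Most of their sequence was not their own. Every 31-base word (31-mer) of each pseudogene's annotated transcripts was searched in the transcripts of all other genes of GENCODE M21. In the median of the 142 genes 9.60% of 31-mers occurred in no other gene, and 29 of 142 had none of their own. Among symbols ending in -ps with counts above 0 and under 40 the median was 45.1%, and among those without counts it was 76.0%. Of the 100 that aligned to their parent, 24 were identical to it over the aligned part and 21 were identical over their whole length. The median identity was 99.4%. Of the nonzero estimated counts of these pseudogenes 93.3% had decimals, and 85.5% did over all transcripts of the table.

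**Figure D1:**
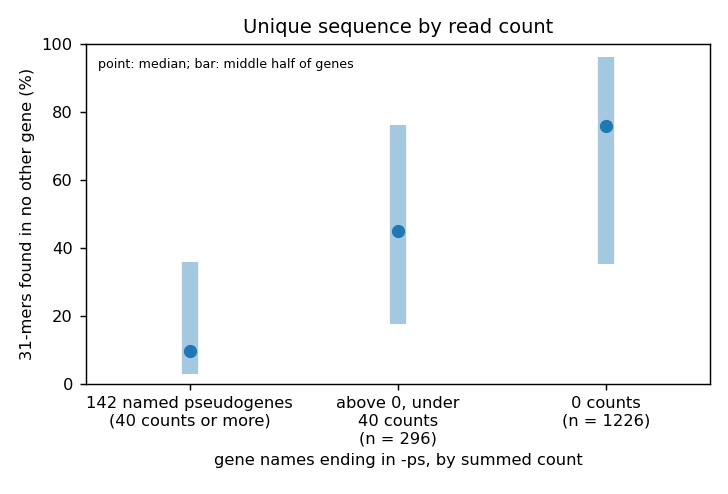
Share of 31-mers that occur in no other annotated gene (%, vertical axis) for gene names ending in -ps, grouped by summed count over 4 libraries (horizontal axis). Points are medians and bars run between the quartiles. The median was 9.60% for the 142 named pseudogenes, 45.1% for names above 0 and under 40 counts, and 76.0% for names at 0.

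The sequences below are 90-base stretches of GENCODE M21 transcripts (build GRCm38), inside the coding part of the parent and at the place where copy and parent differ most. They are shown because such differences bear on how far reads can tell a copy from its parent. Capitals mark bases at which any of the compared sequences differ. Rps6-ps4 lies on chromosome 2 and Rps6, for a protein of the small ribosomal subunit, on chromosome 4, and this stretch is the same in both.
Rps6-ps4: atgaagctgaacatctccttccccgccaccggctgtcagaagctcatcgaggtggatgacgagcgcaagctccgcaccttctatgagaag
Rps6: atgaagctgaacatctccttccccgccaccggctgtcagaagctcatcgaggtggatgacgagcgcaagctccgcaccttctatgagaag
Rpl3-ps1 on chromosome X had 2 mismatches to Rpl3 on chromosome 15 in 1210 aligned bases, 1 of which falls in this stretch.
Rpl3-ps1: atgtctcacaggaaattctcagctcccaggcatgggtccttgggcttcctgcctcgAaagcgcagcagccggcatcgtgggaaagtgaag
Rpl3: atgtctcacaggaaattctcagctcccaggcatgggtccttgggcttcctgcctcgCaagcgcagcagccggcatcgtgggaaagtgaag
Rpl15, for a protein of the large subunit, has 3 named copies in the set, which differ from it by 3, 0 and 1 bases here.
Rpl15-ps2: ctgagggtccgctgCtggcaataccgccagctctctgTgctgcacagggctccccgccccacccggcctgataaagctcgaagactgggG
Rpl15-ps3: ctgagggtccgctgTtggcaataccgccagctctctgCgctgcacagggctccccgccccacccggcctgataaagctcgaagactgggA
Rpl15-ps6: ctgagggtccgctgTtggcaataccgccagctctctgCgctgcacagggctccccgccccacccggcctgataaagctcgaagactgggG
Rpl15: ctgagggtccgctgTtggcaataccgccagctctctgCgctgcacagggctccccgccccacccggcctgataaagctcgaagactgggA
Cbx3-ps1 on chromosome 13 is a copy of Cbx3 on chromosome 6 and differs by 8 bases in this stretch.
Cbx3-ps1: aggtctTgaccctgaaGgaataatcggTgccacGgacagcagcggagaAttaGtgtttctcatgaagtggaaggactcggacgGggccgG
Cbx3: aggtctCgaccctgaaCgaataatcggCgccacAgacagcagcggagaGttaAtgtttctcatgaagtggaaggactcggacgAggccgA

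Library sizes were 21499590 and 23780989 counts in rfISCs and 19243701 and 21517544 counts in ESCs. The named pseudogenes took 1.05% and 1.05% of the counts of the rfISCs libraries and 1.19% and 1.24% of those of the ESCs libraries. Checked against naive and formative marker genes, the libraries went with their labels. In rfISCs 5 of 5 naive genes fell and 4 of 4 formative epiblast genes rose (edgeR's quasi-likelihood test, adjusted p under 0.05). Markers shared by pluripotent states were mixed. Pou5f1 fell by 0.97 and Sox2 by 0.47 on the log2 scale, and Sall4 rose by 0.98, and all 3 passed the same test. Markers of other cells moved too. The summed level of 3 neural markers (Sox1, Pax6, Dcx) was 64.2 and 62.4 CPM in rfISCs and 4.15 and 1.99 CPM in ESCs, and all 3 rose. Of 6 fibroblast markers only Dcn was tested and Lum, Fap and S100a4 were at 0, with a sum of 1.24 and 1.04 CPM in rfISCs and 0 CPM in ESCs. The 3 trophoblast markers were too low to test. Whether such cells had a part in the pseudogene results was not tested. In bulk samples, fewer cells of a type and less RNA per cell cannot be told apart.

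Named pseudogenes fell more often than they rose in rfISCs. Of the 142, 18 rose and 49 fell at a Benjamini-Hochberg adjusted p under 0.05 in edgeR's quasi-likelihood test fitted on all 16355 genes, and 75 were not called. Together 47.2% were called, while 53.7% of all tested genes were. Over all tested genes 27.3% rose and 26.4% fell, and of the named pseudogenes 12.7% rose and 34.5% fell. At least 2-fold, 5 rose and 27 fell, where 11.9% of all tested genes rose and 10% fell by that much. Some of these reached the count threshold of the set only through the group in which they were higher. Among the falls these included the Zscan4 and Obox4 copies, several Vmn2r copies and Olfr718-ps1, and among the rises Lamtor3-ps. Their direction was tied to how they entered, so the shares of falls are not read as an excess over all tested genes. The median log2 fold change was -0.19 over the 142 and 0.00 over all tested genes. The 88 tested parents had a median of -0.13, with 18 rises and 36 falls.

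The falls were unequal between kinds of pseudogene. Among the 87 processed ones 14 rose (16.1%), 23 fell (26.4%) and 50 were not called, with a median log2 fold change of -0.07. Over all tested genes 27.3% rose and 26.4% fell. The processed ones thus had the same share of falls and a lower share of rises. Among the 36 unprocessed ones 2 rose, 18 fell and 16 were not called, with a median of -0.88. These 18 included 10 Vmn2r copies from a single span of chromosome 13, which share sequence, 3 Obox4 copies and Vmn1r-ps151. Several of these reached the count threshold of the set only through the ESCs libraries. The contrast between kinds rests largely on them and is not read as general to unprocessed pseudogenes. Of the 19 others 2 rose and 8 fell. The falls of at least 2-fold were in 17 unprocessed pseudogenes, 6 processed ones and 4 others, and included 10 copies of Vmn2r genes, 3 of Zscan4 and 3 of Obox4.

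**Figure D2:**
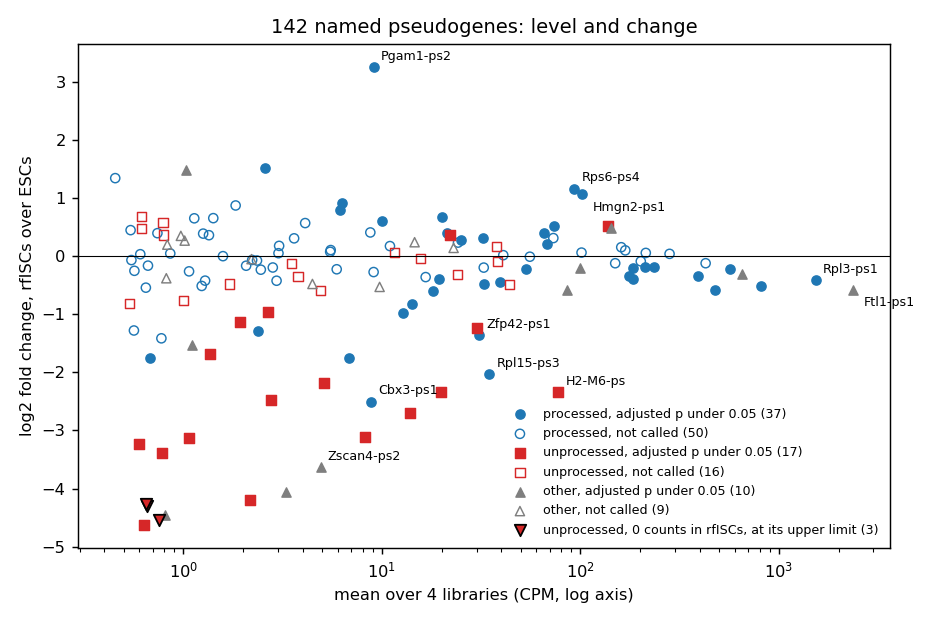
Mean level over the 4 libraries (CPM, log axis) against log2 fold change, rfISCs over ESCs, for the 142 named pseudogenes. Colour and shape give the annotated kind, filled symbols had an adjusted p under 0.05, and 3 pseudogenes with no counts in rfISCs are drawn at the limit that 3 counts set. Large falls lie at low levels and are mostly unprocessed, while of the 23 pseudogenes at 100 CPM or more only Hmgn2-ps1 changed 2-fold.

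A few pseudogenes held most of the counts. The 10 with the highest mean level carried 66.8% of all counts on named pseudogenes, copies of ribosomal protein genes 54.2%, and copies of ferritin light chain genes 27.3%. Ferritin light chain is a subunit of the shell that stores iron in the cell. Ftl1-ps1 had 1892 and 1883 CPM in rfISCs and 2743 and 2911 CPM in ESCs. It fell by 0.58 ± 0.04 on the log2 scale (SE; edgeR quasi-likelihood test, Benjamini-Hochberg adjusted p = 2.89e-06). The parent Ftl1 itself had only 8.96 and 9.45 CPM in rfISCs and 12.1 and 9.91 CPM in ESCs, and was not called. Per length, Ftl1-ps1 held 99.6% and 99.5% of the TPM of the pair in rfISCs and 99.6% and 99.7% in ESCs, although 63.5% of its 31-mers also occur in Ftl1. Which of the 2 loci gave the RNA was not tested. Ftl2-ps, whose parent symbol is not in the table, had 659 and 686 CPM in rfISCs and 956 and 957 CPM in ESCs and fell by 0.51 on the log2 scale. Of its 31-mers 79.7% occur in Ftl1-ps1.

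Copies of cytosolic ribosomal protein genes were 32 in number, and 3 rose (9.38%), 13 fell (40.6%) and 16 were not called. Their median log2 fold change was -0.18. Of all tested genes, 27.3% rose and 26.4% fell. No 31-mer of their own was found in 13 of the 32 copies. Whether reads shared with the parents had a part in these calls was not tested. The ribosomal protein genes themselves had a median of -0.23, with 2 rises and 67 falls among the 87 tested. Rpl3-ps1 had 1309 and 1340 CPM in rfISCs and 1689 and 1816 CPM in ESCs, a fall of 0.40 ± 0.04 on the log2 scale (SE; edgeR quasi-likelihood test, adjusted p = 6.58e-05). Its parent Rpl3, a core protein of the large subunit, fell by 0.25. Rpl3-ps1 was the more abundant of the pair per length, with 1896 TPM in rfISCs and 2239 TPM in ESCs on average, and Rpl3 had 936 TPM in rfISCs and 989 TPM in ESCs. Only 2.63% of the 31-mers of Rpl3-ps1 are its own.

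The other abundant ribosomal copies moved by less than 1.5-fold. Rps7-ps3 averaged 380 ± 0.46 CPM in rfISCs and 570.0 ± 25.99 CPM in ESCs (SD, n = 2 each), and fell by 0.58 on the log2 scale. Rpl10-ps3 averaged 584 ± 24.5 CPM in rfISCs and 722 ± 31.9 CPM in ESCs, a fall of 0.30 on the log2 scale. Rps23-ps1 had 519 and 529 CPM in rfISCs and 601 and 614 CPM in ESCs and fell by 0.21. Rpl10a-ps1 had 335 and 353 CPM in rfISCs and 426 and 444 CPM in ESCs and fell by 0.34. In each of these copies both rfISCs libraries lay below both ESCs libraries. On the scale of log2(TPM + 1) with limma the calls of Rpl10-ps3 and Rps23-ps1 were lost, and that of Rps23-ps1 was also lost without rfISCs replicate 1 (log2 fold change -0.20). Rps13-ps1, with 403 and 418 CPM in rfISCs and 428 and 463 CPM in ESCs, was not called. It held 94.1% and 93.1% of the counts of its pair in rfISCs and 95.5% and 95.3% in ESCs. Its parent Rps13, a protein of the small subunit, had 25.3 and 31.01 CPM in rfISCs and 20.3 and 22.7 CPM in ESCs and rose by 0.39, a call lost without rfISCs replicate 2 (0.23). Rps13-ps1 itself passed without ESCs replicate 1, at -0.18 (edgeR quasi-likelihood test, adjusted p = 0.00207).

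Rps6-ps4 went against its parent. It had 137 and 121 CPM in rfISCs and 58.1 and 57.0 CPM in ESCs. It rose 2.24-fold, by 1.16 ± 0.08 on the log2 scale (SE; edgeR quasi-likelihood test, adjusted p = 2.44e-06), while Rps6 fell by 0.41 (adjusted p = 1.94e-05 in the same test). Rps6-ps4 has no 31-mer of its own and is identical to Rps6 over its 750 bases. Its share of the pair's counts was 9.74% and 8.64% in rfISCs and 3.35% and 3.22% in ESCs. Counted as 1 unit, Rps6 and Rps6-ps4 had 1406 and 1403 CPM in rfISCs and 1736 and 1771 CPM in ESCs, so the unit was lower in rfISCs as Rps6 was.

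Another pair of ribosomal copies rose where the parent fell. Rpl30-ps1 had 24.2 and 25.4 CPM in rfISCs and 15.9 and 15.2 CPM in ESCs, a rise of 0.68 ± 0.11 on the log2 scale (SE; edgeR quasi-likelihood test, adjusted p = 0.000649). Rpl30 fell by 0.25, but stood at 0.16 and was not called by limma on log2(TPM + 1). All counts of Rpl30-ps1 lay on assembled transcripts, whose sequence was not used here. Rpl21-ps15 had 11.8 and 12.3 CPM in rfISCs and 9.71 and 6.12 CPM in ESCs, a rise of 0.61 ± 0.21 (SE; edgeR quasi-likelihood test, adjusted p = 0.0362). That call was lost without ESCs replicate 2, with a log2 fold change of 0.31 (adjusted p = 0.176), and without rfISCs replicate 2, at 0.57 (adjusted p = 0.0864). Rpl21 fell by 0.18, and stood at 0.02 and was not called by limma on log2(TPM + 1).

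The 3 copies of Rpl15 did not move alike. Rpl15-ps3, identical to Rpl15 over its whole length, had 19.4 and 8.04 CPM in rfISCs and 66.3 and 44.9 CPM in ESCs. It fell 4.08-fold, by 2.03 ± 0.32 on the log2 scale (SE; edgeR quasi-likelihood test, adjusted p = 0.000581). Without rfISCs replicate 1, the higher of the rfISCs libraries, the log2 fold change was -2.78. Rpl15-ps6 had 170 and 173 CPM in rfISCs and 197 and 197 CPM in ESCs, a fall of 0.20 (edgeR quasi-likelihood test, adjusted p = 0.0116) that was not called without either rfISCs library (-0.18 and -0.21). Rpl15-ps2, the copy with most differences, had 39.0 and 43.3 CPM in rfISCs and 41.0 and 40.3 CPM in ESCs and was not called. Rpl15 fell by 0.14, a call lost without either rfISCs library (-0.12 and -0.17), and stood at 0.04 by limma on log2(TPM + 1). Taken as 1 unit the 4 genes had 1037 and 1056 CPM in rfISCs and 1187 and 1212 CPM in ESCs, a log2 ratio of -0.20.

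The copies of Rps2, a protein of the small subunit at the entry of the messenger RNA channel, moved little. Rps2-ps13 had 225 and 215 CPM in rfISCs and 251 and 252 CPM in ESCs, and Rps2-ps6 47.2 and 51.3 CPM in rfISCs and 56.5 and 58.6 CPM in ESCs. Both fell, by 0.19 and 0.22 on the log2 scale, and neither was called without rfISCs replicate 1 (-0.22 for Rps2-ps13 and -0.16 for Rps2-ps6) or rfISCs replicate 2 (-0.16 and -0.29 in the same order). Rps2-ps10 had 195 and 241 CPM in rfISCs and 207 and 212 CPM in ESCs, and was not called. Rps2 itself had 1916 and 1382 CPM in rfISCs and 2053 and 2198 CPM in ESCs. Rps2 fell by 0.37, a call lost without rfISCs replicate 2 (-0.15). In that library Rps2 was low and Rps2-ps10 was high.

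The copies of genes for translation factors and Tpt1, taken by gene symbol, were Tpt1-ps3, Eef1a1-ps1, Eif2s3x-ps1 and Eif3s6-ps2. None of these 4 was called by edgeR's quasi-likelihood test, also at an unadjusted p under 0.05. Of all tested genes 53.7% were called at an adjusted p under 0.05. The most abundant was Tpt1-ps3, a copy of the gene for translationally controlled tumour protein. It had 285 and 286 CPM in rfISCs and 296 and 259 CPM in ESCs. Its 519 bases are identical to part of Tpt1, which was not called either. Without ESCs replicate 1 Tpt1-ps3 was called higher, at 0.14 on the log2 scale (edgeR quasi-likelihood test, adjusted p = 0.0428).

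The copies of Hmgn2, Hmgb1, Cbx3 and Ptma, genes for chromatin and nuclear proteins, moved both with and against their parents. Of these 6 copies 2 rose and 1 fell, where 27.3% of all tested genes rose and 26.4% fell. Other genes for chromatin proteins, such as Smarca5, also have copies in the set and are not in this count. Hmgn2 encodes a small protein that binds nucleosomes. Hmgn2-ps1 had 140 and 135 CPM in rfISCs and 68.7 and 62.5 CPM in ESCs, a rise of 1.07 ± 0.07 on the log2 scale (SE; edgeR quasi-likelihood test, adjusted p = 2.44e-06). Hmgn2 rose by 1.23. Nearly all counts of Hmgn2-ps1, 99.97%, lay on an assembled transcript, and its annotated transcript has no 31-mer of its own. Of the 3 copies of Hmgb1, which encodes a DNA-bending protein, Hmgb1-ps2 had 7.96 and 8.62 CPM in rfISCs and 3.65 and 5.10 CPM in ESCs and rose by 0.92. Hmgb1-ps7 at 0.31 and Hmgb1-ps3 at 0.00 on the log2 scale were not called, and Hmgb1 rose by 0.43.

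Cbx3 encodes HP1 gamma, a protein that binds methylated histone H3. Cbx3-ps1 had 2.97 and 2.32 CPM in rfISCs and 17.1 and 12.9 CPM in ESCs. It fell 5.67-fold, with an SE of 0.22 on the log2 scale (edgeR quasi-likelihood test, adjusted p = 1.38e-05). Cbx3 rose by 0.23, a call lost without rfISCs replicate 2 (0.23, adjusted p = 0.0509 in edgeR's test). Of the counts of Cbx3-ps1, 99.9% lay on an assembled transcript of 1345 bases, longer than the annotated copy of 545 bases, and the annotated transcript had 0 and 1 counts in rfISCs and 0 in both ESCs libraries. Its neighbours on chromosome 13 are described with the vomeronasal copies.

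Among copies of enzyme genes, Pgam1-ps2 had the largest rise of all named pseudogenes. Pgam1 encodes phosphoglycerate mutase of glycolysis. Pgam1-ps2 had 24.6 and 8.50 CPM in rfISCs and 1.20 and 2.19 CPM in ESCs, with the rfISCs libraries nearly 3-fold apart but above both ESCs libraries. The rise was 9.59-fold, 3.26 ± 0.51 on the log2 scale (SE; edgeR quasi-likelihood test, adjusted p = 0.000531). Without rfISCs replicate 1 the log2 fold change was 2.32. Pgam1 did not follow, with 1100.0 and 1172 CPM in rfISCs and 1160 and 1098 CPM in ESCs. Pgam1-ps2 has no 31-mer of its own and is identical to Pgam1 over 765 bases. It held 2.18% and 0.72% of the pair's counts in rfISCs and 0.10% and 0.20% in ESCs. Its annotated transcript had 481 and 200 counts in rfISCs and 0 in both ESCs libraries.

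**Figure D3:**
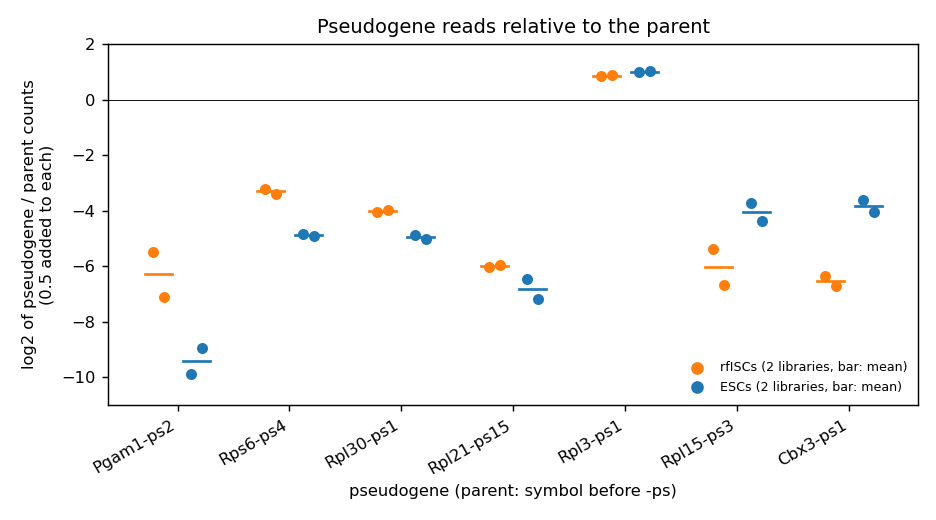
Log2 ratio of pseudogene counts to parent counts (0.5 added to each) in every library for 7 pairs, with rfISCs left of ESCs and bars at group means. The ratio was higher in both rfISCs libraries for Pgam1-ps2, Rps6-ps4, Rpl30-ps1 and Rpl21-ps15, and lower in both for Rpl3-ps1, Rpl15-ps3 and Cbx3-ps1.

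Copies of 2 genes of the pluripotent state fell with their parents. Zfp42 encodes Rex1, a zinc finger protein used as a marker of naive cells. Zfp42-ps1 had 15.9 and 18.9 CPM in rfISCs and 47.9 and 41.4 CPM in ESCs, a fall of 1.36 on the log2 scale, and Zfp42 fell by 1.59. All counts of Zfp42-ps1 lay on an assembled transcript of 920 bases, and its annotated transcript of 490 bases had none in any library. Tdgf1 encodes Cripto, a co-receptor for Nodal. Tdgf1-ps1 had 7.68 and 9.45 CPM in rfISCs and 18.1 and 15.8 CPM in ESCs, a fall of 0.98, and Tdgf1 fell by 1.43. Unlike these, Smarca5-ps fell by 1.74, with 3.02 and 3.28 CPM in rfISCs and 12.3 and 8.84 CPM in ESCs, where its parent, for an ATPase of the ISWI remodelling complexes, was not called. These 3 copies were chosen after their values were seen.

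Other rises were small or rested on few reads. Tma7-ps had 7.45 and 8.17 CPM in rfISCs and 4.91 and 4.13 CPM in ESCs and rose by 0.79 on the log2 scale, and its parent Tma7 rose by 0.22, a call lost without either rfISCs library (0.26 and 0.19) or ESCs replicate 2 (0.16). Anp32b-ps1, a copy of the gene for an acidic nuclear protein, had 2.47 and 5.18 CPM in rfISCs and 1.36 and 1.31 CPM in ESCs and rose by 1.52. Its call was lost without rfISCs replicate 2, with a log2 fold change of 0.88 (edgeR quasi-likelihood test, adjusted p = 0.194). Lamtor3-ps had 1.51 and 1.53 CPM in rfISCs and 0.60 and 0.49 CPM in ESCs and rose by 1.48, a call lost without either rfISCs library (adjusted p = 0.113 and 0.129 in edgeR's test) or ESCs replicate 2 (0.0819). Lamtor3-ps had 33.28 and 37.34 counts in rfISCs and 11.46 and 9.67 counts in ESCs. It thus reached the count threshold only through the rfISCs libraries, and its direction was tied to how it entered the set. It is annotated as protein-coding and did not align to Lamtor3, and 82.3% of its 31-mers occur in Gm3002. The 2 copies of the thymine DNA glycosylase gene Tdg rose by 0.40 each, and Tdg rose by 0.44.

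The largest group of falls lay on chromosome 13. All 10 copies of Vmn2r genes in the set fell. Of these, Vmn2r-ps95, Vmn2r-ps98, Vmn2r-ps99, Vmn2r-ps102, Vmn2r-ps103 and Vmn2r-ps109 reached 40 counts only through the ESCs libraries, so their entry into the set was tied to being higher in ESCs, and the count of 10 is not read against the 26.4% of all tested genes that fell. Vmn2r genes encode type 2 vomeronasal receptors, which sense pheromones in the vomeronasal organ, and these copies are annotated as unprocessed. Vmn2r-ps104 was the most abundant, with 7.27 and 5.93 CPM in rfISCs and 35.0 and 31.2 CPM in ESCs, a fall of 2.33 ± 0.14 on the log2 scale (SE; edgeR quasi-likelihood test, adjusted p = 1.16e-06). Vmn2r-ps105 had 4.21 and 3.23 CPM in rfISCs and 25.04 and 23.2 CPM in ESCs and fell by 2.70. Nearly all its counts lay on assembled transcripts, and its annotated transcript had 0 and 2.45 counts in rfISCs and 14.8 and 0 in ESCs. Vmn2r-ps100 had 1.60 and 1.78 CPM in rfISCs and 14.3 and 15.2 CPM in ESCs and fell by 3.12. All counts of Vmn2r-ps100 lay on assembled transcripts. The 10 genes had a median log2 fold change of -2.91.

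The other vomeronasal copies were lower still. Vmn2r-ps97 had 1.60 and 2.07 CPM in rfISCs and 7.80 and 9.04 CPM in ESCs, and Vmn2r-ps109 had 1.01 and 0.66 CPM in rfISCs and 5.35 and 3.98 CPM in ESCs. Vmn2r-ps102, Vmn2r-ps103, Vmn2r-ps98 and Vmn2r-ps95 lay between 0 and 0.91 CPM in rfISCs and between 0.60 and 2.33 CPM in ESCs. The calls of Vmn2r-ps98 and Vmn2r-ps95 were lost without rfISCs replicate 2, at -2.22 and -1.17, and that of Vmn2r-ps98 also without ESCs replicate 2, at -2.39. Vmn2r-ps99 had no counts in rfISCs and 34 and 16 counts in ESCs, which makes it at least 19.7-fold lower in rfISCs, with the rfISCs total set to a floor of 3 counts. Most counts of Vmn2r-ps97 and Vmn2r-ps109 also lay on assembled transcripts, whose sequence was not used here. The annotated sequences of the copies overlap: 82.4% of the 31-mers of Vmn2r-ps105 occur in Vmn2r-ps104. The 10 are therefore not taken as independent measurements.

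**Figure D4:**
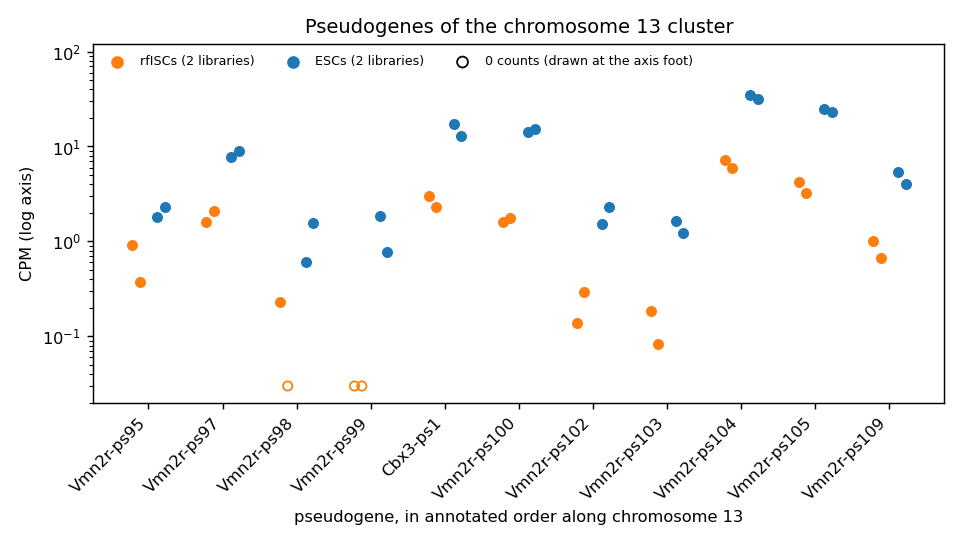
Level in each library (CPM, log axis) of the 10 Vmn2r copies and Cbx3-ps1, in their annotated order along chromosome 13, with rfISCs left of ESCs and open circles for 0 counts. In each of the 11 pseudogenes both rfISCs libraries lie below both ESCs libraries.

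These 10 copies and Cbx3-ps1 lie in 1 span of chromosome 13, from Vmn2r-ps95 to Vmn2r-ps109 in the gene order of GENCODE M21, which was looked at after their values were seen. Together the 11 had 20.1 and 16.8 CPM in rfISCs and 112 and 104 CPM in ESCs. The span holds 88 annotated genes, and 72 other gene names of the table fall in it. Of the 37 of these that were tested, 36 fell and 1 rose, with a median log2 fold change of -2.78. By annotation 21 of the 37 are processed pseudogenes, plain or transcribed, 11 are lincRNAs and 4 are protein-coding.

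The highest of these neighbours in ESCs were the protein-coding zinc finger genes Zfp997 and Zfp998, the lincRNA Gm40988 and Zfp640, itself annotated as a transcribed processed pseudogene. Zfp997 had 10.7 and 10.7 CPM in rfISCs and 104 and 108 CPM in ESCs, a fall of 3.30 on the log2 scale. Zfp998 fell by 2.66, Zfp640 by 3.06 and Gm40988 by 3.19. The 1 gene that rose was the processed pseudogene Gm48111, with 44.5 and 56.2 CPM in rfISCs and 42.3 and 39.0 CPM in ESCs. Past the ends of the span falls were fewer. Next to it the lincRNA Gm7762 fell by 1.73, and Nlrp4f, the 6th tested gene before it, fell by 3.84, more than the median inside. Of the 10 nearest tested genes on each side, 4 before the span and 3 after it fell and none rose. The other 6 before and 7 after were not called. Besides Gm7762 and Nlrp4f, the falls before it were of 0.30 (Mfsd14b) and 2.46 (Cntnap3). Those after it were of 0.61 (Uqcrb), 0.26 (Ptdss1) and 1.03 (Zfp708). Of the 644 tested genes of chromosome 13 outside the span, 24.8% fell. The assembled transcripts of Vmn2r-ps104 share a locus with Zfp998 and those of Vmn2r-ps100 with Gm40987, and which gene their reads came from was not tested.

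Zscan4 genes are expressed in the embryo at the stage of 2 cells and in rare cells of stem cell cultures. The 3 named copies of Zscan4 lie on chromosome 7, are annotated as protein-coding and fell. Zscan4-ps2 had 0.32 and 1.12 CPM in rfISCs and 8.07 and 10.2 CPM in ESCs, a fall of 3.63 ± 0.40 on the log2 scale (SE; edgeR quasi-likelihood test, adjusted p = 6.30e-05). Without rfISCs replicate 1 the fall was 3.02, and without rfISCs replicate 2 it was 4.81. Zscan4-ps3 had 0.18 and 0.54 CPM in rfISCs and 5.18 and 7.24 CPM in ESCs, a log2 fold change of -4.06, and of -5.04 without rfISCs replicate 2. Zscan4-ps1 had 3 counts in rfISCs and 61 in ESCs, a ratio of 0.042 with an exact 95% interval of 0.0084 to 0.128 for counting error. In the same span 5 other genes were tested and all 5 fell, where 26.4% of all tested genes fell. Zscan4d, Zscan4e and Zscan4f, among these 5, fell by 3.28 to 3.79 on the log2 scale. Another, Gm45598, was low, with 0.27 and 0.08 CPM in rfISCs and 1.75 and 0.97 CPM in ESCs. Whether these genes share reads with the copies was not tested, so the 5 are not taken as independent measurements. All counts of Zscan4-ps2 and Zscan4-ps3 lay on assembled transcripts. Of the 31-mers of the annotated Zscan4-ps2 transcript, which had no counts, 81.5% occur in Zscan4c.

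The 3 Obox4 copies, also on chromosome 7, fell at low levels. These 3, the 3 Zscan4 copies and Vmn1r-ps151 reached 40 counts only through the ESCs libraries, so their direction was tied to how they entered the set. Obox genes encode homeobox proteins of the oocyte and early embryo. Obox4-ps27 had 0.32 and 0.12 CPM in rfISCs and 3.33 and 4.86 CPM in ESCs and fell by 4.19 on the log2 scale, and by 4.97 without rfISCs replicate 1. Obox4-ps28 had no counts in rfISCs and 59 in ESCs, and was at least 23.2-fold lower with the rfISCs total set to 3 counts. Obox4-ps19 had none in rfISCs and 49 in ESCs, and was at least 19.3-fold lower on the same terms. Both limits take the ESCs count as exact. Neither copy has a 31-mer of its own, and how shared reads were divided was not tested. Vmn1r-ps151, a copy of a vomeronasal receptor gene of type 1, had 2 counts in rfISCs and 47 in ESCs, a ratio of 0.036 with an exact 95% interval of 0.0042 to 0.138.

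Few pseudogenes with mostly unique annotated sequence were called. Of 28 with over 50% unique 31-mers, 1 rose (3.57%), 4 fell (14.3%) and 23 were not called. Over all tested genes 27.3% rose and 26.4% fell. Several of the 28 had under 100 summed counts, among them Plk-ps1 with 40.05, Supt20-ps with 51.0 and Spr-ps1 with 52.51. Depth limits calls in such genes, so the low share is not read as a trait of unique sequence. H2-M6-ps, an unprocessed copy in the major histocompatibility complex, had 28.6 and 22.6 CPM in rfISCs and 134 and 124 CPM in ESCs. It fell 5.04-fold, by 2.33 ± 0.11 on the log2 scale (SE; edgeR quasi-likelihood test, adjusted p = 2.55e-07), but 98.4% of its counts lay on assembled transcripts, which share a locus with H2-M5. Its annotated transcript, of whose 31-mers 98.0% are unique, had 10.5 and 26.6 counts in rfISCs and 49.1 and 12.8 counts in ESCs, and there the groups overlapped. Vmn2r-ps104 with 52.9%, Slfn10-ps with 67.6% and Olfr718-ps1 with 89.9% also fell, the first of these with 83.3% of its counts on assembled transcripts. Olfr718-ps1 reached the count threshold of the set only through the ESCs libraries. Pisd-ps2, a copy of the phosphatidylserine decarboxylase gene with 61.5%, rose by 0.37 with 89.1% of its counts on assembled transcripts. Among the 29 without a 31-mer of their own 5 rose (17.2%) and 11 fell (37.9%). Among 43 with up to 10% unique 31-mers 5 rose (11.6%) and 18 fell (41.9%). Among 42 with 10% to 50% unique 7 rose (16.7%) and 16 fell (38.1%).

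Pseudogene and parent had changes of the same sign in 74 of 100 pairs. In these 100 pairs both genes were tested. In 75 the 2 log2 fold changes lay within 0.5 of each other, and in 11 they were 1 or more apart. Both fell in 18 pairs and both rose in 10. The 4 pairs called in opposite directions were Rps6-ps4, Rpl30-ps1 and Rpl21-ps15, which rose, and Cbx3-ps1, which fell. Across these pairs, which share libraries and often reads, Pearson's r was 0.33 and Spearman's rho 0.40 (n = 100 pairs, as a description). In each of the 100 pairs the log2 ratio of pseudogene to parent in rfISCs was set against that in ESCs. The median of these differences was 0.01, higher in rfISCs. An exact two-sided permutation test of 2 libraries against 2 cannot go below p = 0.33, and none was used for a single ratio.

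**Figure D5:**
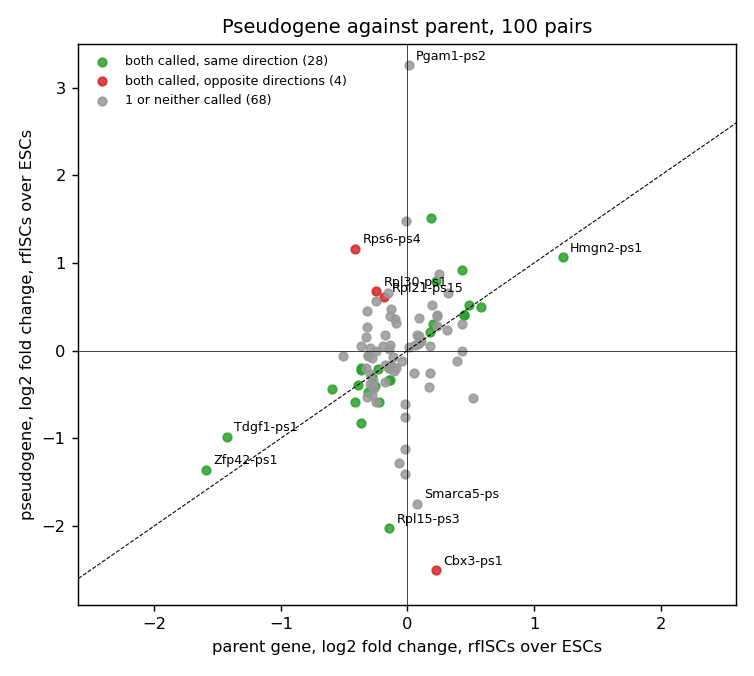
Log2 fold change, rfISCs over ESCs, of the parent gene (horizontal axis) and of its pseudogene (vertical axis) for 100 pairs, with the line of equal change dashed. Green points were called in the same direction (28 pairs), red points in opposite directions (4 pairs) and grey points have at most 1 gene called (68 pairs). Zfp42-ps1, Tdgf1-ps1 and Hmgn2-ps1 lie near the line, and Pgam1-ps2, Smarca5-ps, Rpl15-ps3 and Cbx3-ps1 lie far from it.

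By level per length the copies were often not minor. The median pseudogene held 15.6% of the TPM of its pair over the 4 libraries. In 20 pairs the pseudogene was above its parent in mean TPM, and in 31 it held under 5%. In 60 pairs at most 10% of the pseudogene's 31-mers were unique. Their median absolute difference between the 2 log2 fold changes was 0.19, and the other 40 pairs had 0.29. Spearman's rho went the other way, with 0.38 in the 60 pairs and 0.47 in the 40. These values are therefore not read as copies with shared sequence following their parents more closely.

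Transcripts of pseudogenes, which often hold early stop codons, can be substrates of nonsense-mediated decay and of the RNA exosome. Among decay factors Upf1, the central helicase, rose by 0.50 on the log2 scale, and Smg1, its kinase, fell by 0.33. Of 10 tested exosome genes 3 rose and 1 fell, and the share that rose is near the 27.3% of all tested genes. Exosc3, an RNA-binding cap subunit, rose by 0.42 and Exosc8, a ring subunit, fell by 0.31. Their part in the pseudogene levels was not tested.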

How the data were processed

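Total RNA of 46C cells was sequenced in 2 rfISCs and 2 ESCs libraries. Per the file headers, the deposited values are estimated counts and TPM of single transcripts, and the counts carry decimals and are not scaled between libraries. The authors' ratio (fold) of the groups, the log2 of that ratio and their p-values, raw and adjusted, stand beside them per the file headers and were not used here. Bowtie 0.12.2 and mm9 appear, with no role, in the submitters' processing notes, and the quantification tool and annotation are not given in the sources used here, so no coordinates are printed.

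Estimated counts were summed by gene name and rounded to whole numbers. Transcripts with a blank name, 1.27% and 1.22% of counts in rfISCs and 1.58% and 1.62% in ESCs, took no part. Genes were kept by filterByExpr (minimum count 10), which all 142 members passed, and tested with edgeR 4.0.16 (R 4.3.3) by the quasi-likelihood test with TMM scaling, on all 16355 genes, with Benjamini-Hochberg adjustment. CPM are TMM-scaled. The SE is the log2 fold change divided by the square root of F. Intervals cover counting error only. Floors set the rfISCs total to 3 counts and take the ESCs count as exact, so its counting error is left out. Replicates differed by more than sampling noise (chi-square per degree of freedom 4.55 in rfISCs and 6.71 in ESCs, genes with at least 20 counts). The fit was checked on simulated counts.

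Kinds, gene order and sequences came from GENCODE M21, which held 138302 of the 142434 Ensembl transcripts of the table. Its transcripts had the table's length in 2507 of 2522 transcripts of members and parents. Assembled transcripts have no sequence there, so shares of unique 31-mers describe annotated transcripts alone. Pseudogenes were aligned to their parents with blastn (BLAST 2.17.0, word size 7). Strand use in the counting is not given, so antisense and overlapping genes are uncertain.

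Genes named are the 10 most abundant members, the 8 largest called rises and falls, pairs called in opposite directions, families of at least 3 members, the threshold neighbours and their parents. Other genes were picked once their values were known. The members and lists were chosen with earlier results of these data known. Alternatives were DESeq2 1.42.0, edgeR with size factors from DESeq2, scaling to library totals, no filter on low counts, limma 3.58.1 on log2(TPM + 1), Ensembl transcripts alone, a replicate block, each library left out, and for ratios log2(TPM + 0.1). The list of nonsense-mediated decay factors is given in part, since 1 result is not reported here.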

Additional observations from a re-analysis of the deposited data

How the results depend on the processing

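Of the 142 pseudogenes 67 were called, 18 rises and 49 falls. DESeq2 gave 11 rises and 40 falls. Ensembl transcripts alone, which left 116 of the pseudogenes in the test, gave 41 calls, 9 rises and 32 falls. The annotated processed pseudogenes alone, counted after seeing the data, gave 37 calls with 23 falls, since fewer genes enter. Leaving out 1 library gave 54 to 76 calls, 12 to 23 rises and 41 to 55 falls, with 6808 to 9284 genes called and a median log2 ratio difference of pseudogene to parent of -0.02 to 0.07 (0.01 with all libraries). Same-numbered libraries did not deviate together (correlation 0.0010), and the replicate block gave 73 calls, 19 rises and 54 falls, with 8824 genes called. Limma on log2(TPM + 1) moved the median of all genes to 0.14, and 4 parents that had fallen were then above 0 and not called: Rpl10a at 0.0060, Rpl15 at 0.044, Rpl21 at 0.024 and Rpl30 at 0.16. Among Ensembl transcripts alone Rps2-ps13 was at 0.43 (adjusted p = 0.822), since 99.2% of its counts lie on an assembled transcript. Lamtor3-ps was not called by DESeq2 (adjusted p = 0.131) or without rfISCs replicate 1 (0.113), rfISCs replicate 2 (0.129) or ESCs replicate 2 (0.0819). Rps2-ps6 was not called by DESeq2 (adjusted p = 0.146). The causes were not tested. Depth limits the 33 pseudogenes under 100 summed counts most.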
